A study of Homo sapiens with 48 samples.

Results

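The 50 genes described here encode proteins of mitosis and of DNA replication, and their RNA was followed in human embryonic kidney cells after knockdown of UPF1. They were given as a list of names. All 50 were found by name, 1 entry each, among the 57820 genes of the deposited expected-count table. Of these, 27 act in mitosis and 23 in replication or in the step from G1 to S phase. All 50 passed the filter on low counts that left 19129 genes for testing.

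RNA was sequenced from Flp-In 293 T-REx cells, an HEK293 derivative built so that transgenes integrate at 1 recombination site. There were 48 libraries in 16 groups of 3, from 8 stable lines. Each line received 40 nM of either control siRNA (siNT, which targets no gene) or UPF1 siRNA (siUPF1), and RNA was taken 72 h later. One line is labelled CLIP, with no UPF1 form named, and served as the tag-only line. The other 7 express UPF1 fused to the CLIP protein tag, as the wild type (WT) or as K498A, DE636AA, R843C, A546H, GA-KH or E797R. K498A and DE636AA change the Walker A and Walker B motifs, with which the UPF1 helicase binds and hydrolyses ATP. The labels do not say what the other 4 changes do, and the sources used here do not give the promoter of the transgene, or whether a line is 1 clone. Each form was present in 1 line, so a property of the form and one of the line cannot be told apart. The triplicates are called biological replicates by the series text. What separates them (culture, day or passage) is not given, so the p-values measure the spread between these samples. In bulk RNA, fewer cells in a stage of the cycle and less RNA per cell cannot be told apart.

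Genes of the cell cycle are transcribed in waves. Replication genes rise around the entry into S phase through E2F factors. Mitotic genes rise in G2 and M, under control of the DREAM and MuvB complexes. These bind the cell cycle genes homology region (CHR), often found beside CCAAT boxes bound by NF-Y. Origins are licensed by loading the MCM helicase with CDC6 and CDT1, the helicase is activated by CDC45 and GINS, and the spindle checkpoint delays separation of chromosomes until kinetochores are attached. UPF1 is the central helicase of nonsense-mediated mRNA decay (NMD), it takes part in other mRNA decay pathways, and its loss is known to impair progression through the cell cycle.

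The promoters of 6 members are shown first, and the shares over all members follow. In each of the mitotic and replication sets these are the 3 members with the largest called mean response, in absolute size, among those with a promoter at hand. AURKA, BIRC5, TTK and CCND1 had larger mean responses than some of those shown, but no promoter in the source used. The promoters are windows of 300 bases around the gene's start from RefSeq, in the build GRCh38.p14, written 5′ to 3′ on the strand of the gene. Capitals mark matches, on either strand, to the CHR (TTTGAA or TTCGAA), to a core bound by E2F (TTGGCGC, or TTCCCGC, or TTGCCGC, or TTCGCGC) and to the CCAAT box (CCAAT). KIF23 lies at chr15:69414099-69414398 on the plus strand, with a CHR starting at -55 and a CCAAT box at -64 from the start. CENPE lies at chr4:103198294-103198593 on the minus strand and holds none of the 3 motifs. MAD2L1 lies at chr4:120066799-120067098 on the minus strand and holds 1 of each, the E2F core at -105 and the CHR at 24. TYMS lies at chr18:657403-657702 on the plus strand with an E2F core at -39. RRM2 lies at chr2:10122489-10122788 on the plus strand with 3 CCAAT boxes, at -123, -93 and -66. CDC45 lies at chr22:19479670-19479969 on the plus strand with 4 CCAAT boxes, at -112, -102, -64 and -44.
KIF23: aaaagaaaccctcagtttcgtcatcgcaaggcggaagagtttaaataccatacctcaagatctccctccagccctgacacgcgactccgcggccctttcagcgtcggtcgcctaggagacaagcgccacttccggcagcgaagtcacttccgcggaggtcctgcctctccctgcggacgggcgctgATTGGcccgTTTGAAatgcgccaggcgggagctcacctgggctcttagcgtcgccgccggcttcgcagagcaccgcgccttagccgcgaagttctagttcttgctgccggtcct
CENPE: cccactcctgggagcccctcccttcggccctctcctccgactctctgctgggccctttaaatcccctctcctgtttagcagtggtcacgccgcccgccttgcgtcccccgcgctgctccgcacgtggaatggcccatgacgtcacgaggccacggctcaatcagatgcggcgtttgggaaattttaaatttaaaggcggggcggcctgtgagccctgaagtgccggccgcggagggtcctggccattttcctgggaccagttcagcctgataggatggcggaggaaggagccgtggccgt
MAD2L1: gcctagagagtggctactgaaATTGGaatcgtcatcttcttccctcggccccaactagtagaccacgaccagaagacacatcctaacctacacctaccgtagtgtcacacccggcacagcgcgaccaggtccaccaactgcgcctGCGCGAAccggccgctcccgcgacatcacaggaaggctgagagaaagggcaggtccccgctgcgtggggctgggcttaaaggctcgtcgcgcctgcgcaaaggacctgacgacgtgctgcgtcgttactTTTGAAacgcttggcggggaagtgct
TYMS: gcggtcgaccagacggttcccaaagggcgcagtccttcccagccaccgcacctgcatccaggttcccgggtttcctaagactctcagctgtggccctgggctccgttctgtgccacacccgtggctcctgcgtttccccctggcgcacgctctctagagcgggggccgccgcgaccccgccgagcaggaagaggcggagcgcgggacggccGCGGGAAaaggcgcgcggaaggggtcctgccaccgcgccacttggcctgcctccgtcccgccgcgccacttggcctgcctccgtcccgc
RRM2: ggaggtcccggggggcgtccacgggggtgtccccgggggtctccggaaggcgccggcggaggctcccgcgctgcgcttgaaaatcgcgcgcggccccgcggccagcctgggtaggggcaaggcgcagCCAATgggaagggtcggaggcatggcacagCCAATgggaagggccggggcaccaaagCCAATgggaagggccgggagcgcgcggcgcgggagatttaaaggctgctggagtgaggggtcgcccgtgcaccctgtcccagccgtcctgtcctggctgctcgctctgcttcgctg
CDC45: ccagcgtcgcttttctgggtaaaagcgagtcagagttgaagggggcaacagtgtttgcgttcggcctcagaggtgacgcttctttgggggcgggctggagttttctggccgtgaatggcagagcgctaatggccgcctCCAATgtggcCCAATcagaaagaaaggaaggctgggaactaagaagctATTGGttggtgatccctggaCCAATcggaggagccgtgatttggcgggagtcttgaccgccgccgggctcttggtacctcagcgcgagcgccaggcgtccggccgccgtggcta

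The table of promoters held 22 of the 27 mitotic and 19 of the 23 replication members. A CHR was found in 16 mitotic promoters (72.7%) and in 2 replication promoters (10.5%), those of MCM6 and RRM1. Over all 27305 promoters of the table the share was 16.6%. The order was the opposite for the E2F core, with 5 mitotic promoters (22.7%), 14 replication promoters (73.7%) and 13.1% of all. CCAAT boxes were common in both, at 77.3% and 68.4% against 35.7% of all promoters. Genes outside the list showed the same contrast. Of 51 promoters of other mitotic genes 31 held a CHR and 18 an E2F core, and of 39 promoters of other replication genes 1 held a CHR and 24 an E2F core. The members with no promoter in the table were AURKA, BUB3, TTK, TPX2, BIRC5, MCM4, MCM5, CCNE2 and CCND1. A match is a string of letters and not a bound site, and the search covered this window only. The bar chart of motif shares sets the sets side by side.

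**Figure D1:**
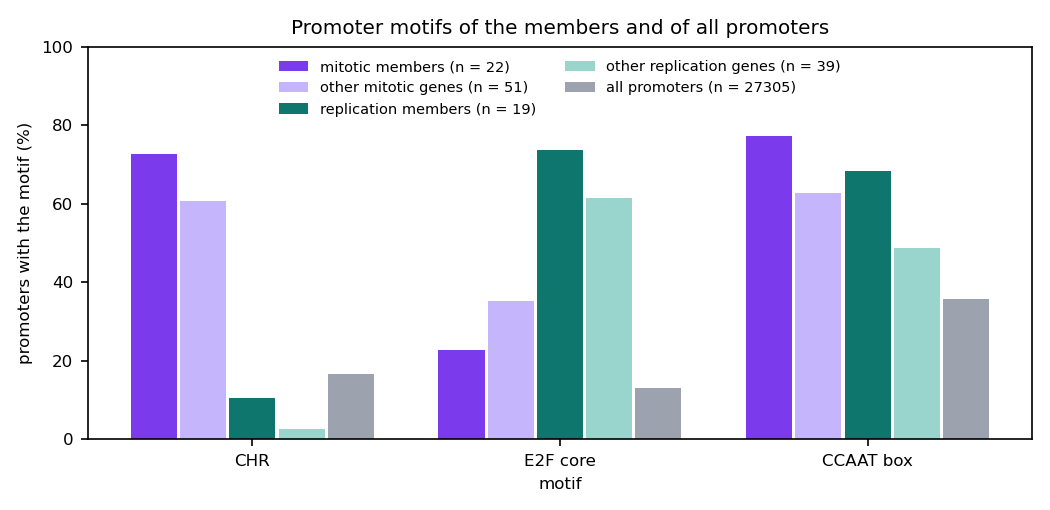
Share of promoters (y axis, percent, from 0 to 100) that hold each of 3 motifs (x axis), for mitotic and replication members, other genes of each kind, and all promoters of the table. The CHR is frequent in mitotic promoters (72.7%) and the E2F core in replication promoters (73.7%), while the CCAAT box is frequent in both (77.3% and 68.4%).

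Between 21.3 and 47.1 M expected counts were assigned per library. The HEK293 marker NEFL was present in every library (168 to 493 CPM, counts scaled to the normalised library total), as was INA, also a neurofilament gene (22.0 to 68.4 CPM). The other HEK293 markers were low, NEFM at 0.842 to 2.75, PAX2 at 2.42 to 8.89 and LHX1 at 2.40 to 6.05 CPM. COL1A1 (1.02 to 4.67 CPM) and COL3A1 (2.60 to 13.3 CPM), markers of other cells, were at similar levels. Of the markers of other cells, PTPRC, CD3E, CDH5, MYH6 and KRT5 were at 0.143 CPM or below in every library, and the epithelial gene EPCAM was at 64.8 to 100.2 CPM. UPF1 itself fell in CLIP from 108 ± 4.14 CPM (SD, n = 3) to 24.2 ± 10.9 CPM. In the other lines UPF1 RNA, transgene included, was between 3958 and 7218 CPM in group means and no change was called, so loss of the endogenous transcript could not be seen. CLIP siUPF1 replicate 2 stood apart. Its change from the siNT mean followed the GC content of transcripts with a Spearman rho of 0.64 over 13972 genes, against 0.05 and 0.21 for replicates 1 and 3. The next highest were WT siUPF1 replicate 3 (0.38) and E797R siUPF1 replicate 3 (0.31). This bears on the members, because the median GC content was 42.3% for mitotic members, 49.1% for replication members and 49.0% for all genes with a value. Of the 35 members called in CLIP, 11 were not called without it, namely CCNB2, CCNA2, CDK1, PLK1, NUF2, CENPF, MCM2, MCM5, GINS1, PCNA and CCNE2. In the other direction, TPX2 (-0.21), MCM7 (-0.20) and MCM10 (-0.16) were called lower in CLIP without it and not with it.

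Averaged over the 8 lines, siUPF1 lowered most mitotic members and split the replication members. Of 27 mitotic members 22 fell and 3 rose, and of 23 replication members 12 fell and 6 rose (edgeR quasi-likelihood test, Benjamini-Hochberg adjusted p under 0.05 over all genes, as for every call below). Over all genes tested 35.1% were called higher and 34.1% lower in this average. The median log2 fold change was -0.21 for mitotic members, -0.08 for replication members and 0.01 for all genes. These are modest shifts, to 0.865 and 0.945 of the siNT level. With any 1 of the 48 libraries left out, 24 to 26 mitotic and 18 to 19 replication members were called.

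A few members were called in the same direction in every line. KIF23, AURKA, AURKB, BUB1, RRM2 and TYMS fell in all 8 lines, as did 5.24% of all genes tested, and CDC45 and CCND1 rose in all 8, as did 5.75%. Over single lines 36 members fell in at least 1 line (35.6% of all genes) and 9 rose in at least 1 (36.4%). No member was called in both directions, against 2.85% of all genes. KIF11, ECT2, MCM3, FEN1 and CCNE1 were called in no line, as were 30.9% of all genes. Of the 169 calls in single lines, 112 held whichever of the 6 libraries of the line was left out. With a correction for GC content in each library, chosen after seeing the data, 159 of the 169 held. That correction also added calls. Counting the mean response too, 87 member values became called and 2 were called with the sign reversed. Among those added were FEN1 (-0.25) and, reversed, KIF11 (0.22), both in CLIP. Of all genes with a GC value, 45.8% (WT) to 59.1% (CLIP) were called in single lines under it. The heat map of responses shows the fold change of every member in every line.

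**Figure D2:**
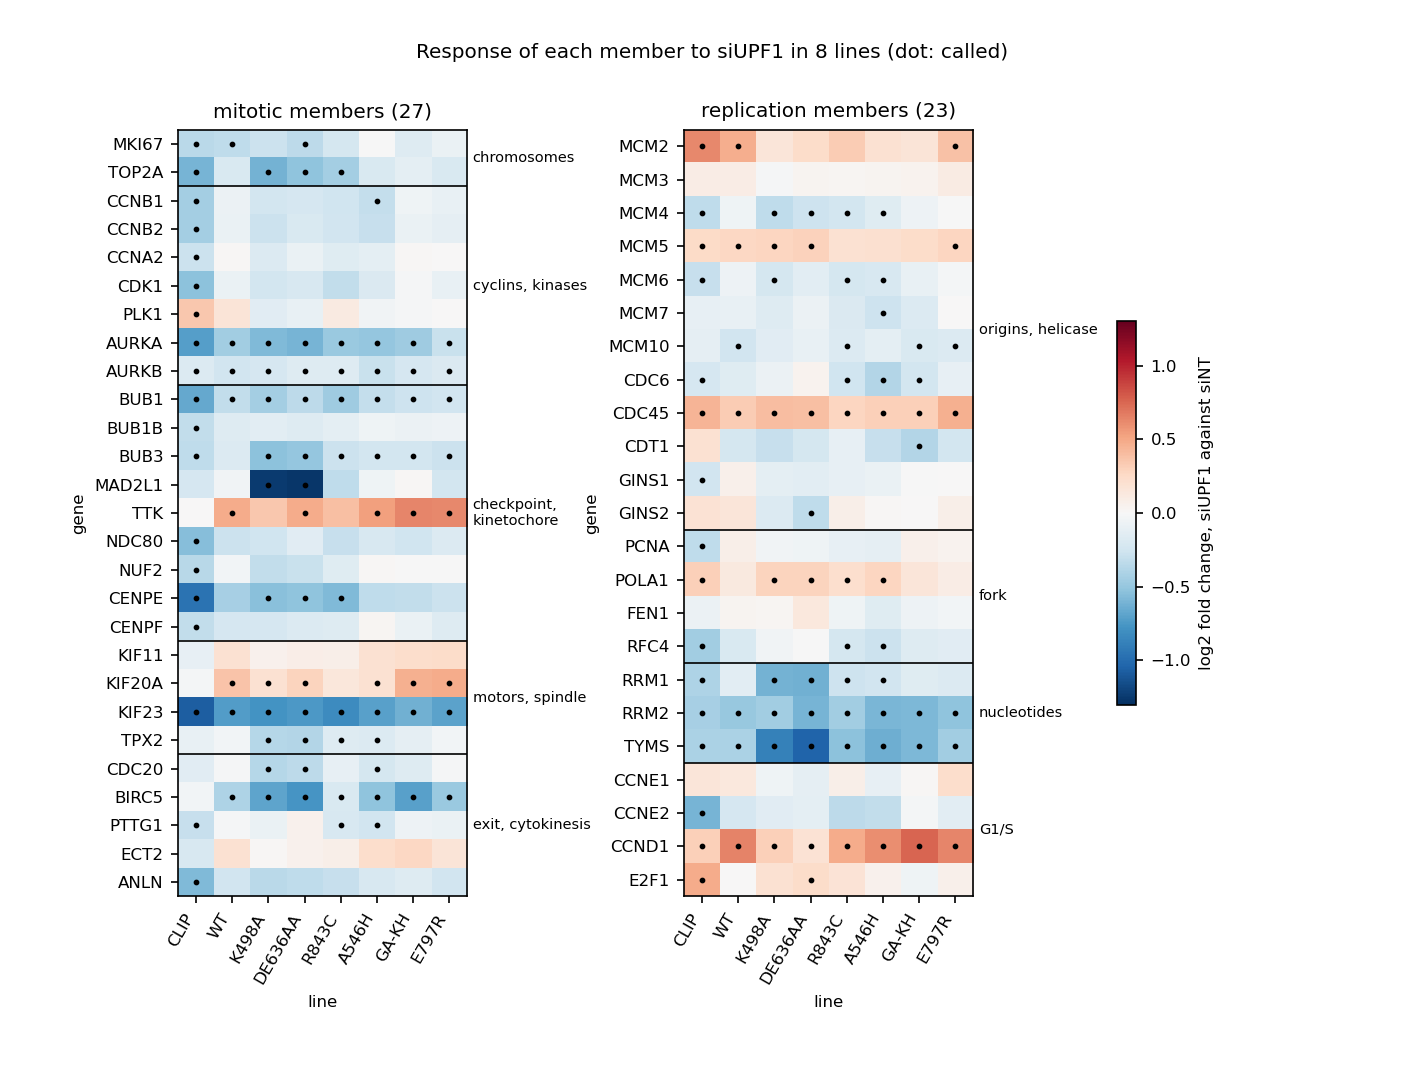
Log2 fold change of siUPF1 against siNT (colour, blue lower and red higher) for the 27 mitotic members (left) and 23 replication members (right), in rows by role, in each of 8 lines (columns), with a dot where the change was called. Rows of KIF23 and AURKA are blue throughout, CDC45 and CCND1 red throughout, and MAD2L1 is dark in K498A and DE636AA alone.

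Among mitotic members, the chromosome proteins MKI67, which coats mitotic chromosomes and is a marker of proliferation, and TOP2A, the topoisomerase that untangles sister chromatids, both fell on average. MKI67 ran from 1827 to 2650 CPM over the 24 siNT libraries (median 2249) and from 1307 to 2272 CPM over the 24 siUPF1 libraries (median 1974). The ranges overlapped widely, and MKI67 fell in CLIP, WT and DE636AA only, at -0.35, -0.33 and -0.34 on the log2 scale. Each of these 3 calls was lost when 1 library was left out, siNT replicate 2 or siUPF1 replicate 3 of the line. TOP2A fell in CLIP (-0.61), K498A (-0.62), DE636AA (-0.53) and R843C (-0.44), each also with any library left out.

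Of 7 cyclins and mitotic kinases 6 fell on average and PLK1 did not pass the test (0.04, SE 0.04). AURKA, the kinase of the spindle poles, had the largest fall. It ran from 86.1 to 106 CPM with siNT (median 96.0) and from 49.3 to 75.7 CPM with siUPF1 (median 70.0). Every siUPF1 library lay below every siNT library. The mean response was -0.51 (SE 0.03, adjusted p = 6.88e-18), which left 70.2% of the siNT level. AURKB, the kinase of the chromosomal passenger complex, fell in every line by a small amount, from -0.17 in DE636AA to -0.29 in A546H. Its call in CLIP was lost without CLIP siUPF1 replicate 1 (-0.14), that in DE636AA without any 1 of 4 libraries and that in R843C without any 1 of 3. CCNB1, CCNB2, CCNA2 and CDK1, the cyclins and kinase that drive entry into mitosis, were called lower in CLIP, at -0.44, -0.44, -0.28 and -0.53. Elsewhere only CCNB1 in A546H (-0.31) was called among these 4, a call that held in 3 of 6 fits with 1 library left out. The values of CCNB1, CCNB2 and CDK1 were below 0 in all 8 lines, and that of CCNA2 in 5. Without CLIP siUPF1 replicate 2 only CCNB1 was called among them (-0.24, adjusted p = 0.0124). The CLIP values were then -0.24 for CCNB2 (adjusted p = 0.0733), -0.18 for CCNA2 (adjusted p = 0.138) and -0.23 for CDK1 (adjusted p = 0.13). With the GC correction CCNA2 was at -0.09 (adjusted p = 0.176), and the other 3 were called. PLK1, a kinase of mitotic entry and spindle assembly, was called higher in CLIP (0.35) but not without that library (0.17, adjusted p = 0.262).

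The 9 checkpoint and kinetochore members included 8 that fell on average and TTK, which rose. BUB1, a checkpoint kinase, fell in every line, from -0.25 in E797R to -0.67 in CLIP, and BUB3, its partner at the kinetochore, fell in 7. BUB1 in 6 lines and BUB3 in 4 were called with any library of the line left out. CENPE, a kinetochore motor, ran from 119 to 224 CPM with siNT (median 189.7) and from 65.0 to 177 CPM with siUPF1 (median 135). These ranges overlapped. CENPE fell on average by 0.49 on the log2 scale (SE 0.06, adjusted p = 9.89e-09), and was called in CLIP (-0.96), K498A, DE636AA and R843C. The calls in K498A and DE636AA were each lost without 1 of several libraries. It has the lowest GC content of the members, 35.3%, and with the GC correction its value in CLIP was -0.49. TTK, the kinase that starts checkpoint signalling, ran from 31.4 to 52.3 CPM with siNT (median 46.4) and from 26.1 to 76.6 CPM with siUPF1 (median 62.2). Its lowest siUPF1 value was that of CLIP siUPF1 replicate 2. TTK rose on average by 0.44 (SE 0.06, adjusted p = 1.53e-07) and in WT, DE636AA, A546H, GA-KH and E797R. Only the call in E797R (0.63) held with any library of the line left out. NDC80, NUF2, CENPF and BUB1B, which build the kinetochore or act in the checkpoint, were called lower in CLIP alone among the lines, at -0.56, -0.36, -0.32 and -0.32. The values of NDC80 and BUB1B were below 0 in all 8 lines, and those of NUF2 and CENPF in 7. No difference of response from CLIP was called for any of them. NDC80 and BUB1B were also called with any library of CLIP left out and with the GC correction. NUF2 was not called without CLIP siUPF1 replicate 2 (-0.15, adjusted p = 0.304) or with the GC correction (-0.07, adjusted p = 0.272). CENPF was called in 1 of 6 fits with a CLIP library left out, and was at -0.29 (adjusted p = 0.103) without siUPF1 replicate 2 and at -0.06 (adjusted p = 0.641) with the GC correction.

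The 4 motor and spindle members divided evenly. KIF23, a motor of the central spindle needed for cytokinesis, had the largest average fall of all 50 members. It ran from 185 to 266 CPM with siNT (median 239) and from 79.6 to 160.2 CPM with siUPF1 (median 140.1). No siUPF1 library reached the lowest siNT library. The mean response was -0.77 (SE 0.05, adjusted p = 3.28e-17), with line values from -0.63 in GA-KH to -1.07 in CLIP. Without CLIP siUPF1 replicate 2, at 79.6 CPM, the CLIP value was -0.88. KIF20A, a motor that carries the passenger complex to the central spindle, rose on average by 0.27 (SE 0.02, adjusted p = 3.92e-13). It was not called in CLIP and is described with the differences between lines. TPX2, which activates AURKA on the spindle, fell in K498A (-0.37), DE636AA (-0.38), R843C (-0.17) and A546H (-0.18). Without CLIP siUPF1 replicate 2 it was also called lower in CLIP (-0.21, edgeR adjusted p = 0.00509). The calls in R843C and A546H each held in 2 of 6 fits with 1 library left out. KIF11, the motor that separates spindle poles, rose slightly on average (0.12, SE 0.05, adjusted p = 0.0241).

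Of 5 members for mitotic exit and cytokinesis 4 fell on average. BIRC5 (survivin), a passenger complex subunit and inhibitor of apoptosis, fell by 0.47 on the log2 scale (SE 0.03, adjusted p = 1.22e-18). It ran from 165 to 221 CPM with siNT (median 184) and from 98.8 to 219 CPM with siUPF1 (median 127), and the highest siUPF1 values were those of CLIP (166 to 219 CPM) and R843C (161 to 168 CPM). CDC20, the activator of the anaphase-promoting complex, fell in K498A (-0.37), DE636AA (-0.34) and A546H (-0.23). The A546H call held in 3 of 6 fits with 1 library left out. PTTG1 (securin), which holds separase inactive, fell in CLIP, R843C and A546H. ANLN, a scaffold of the contractile ring, was called lower in CLIP alone (-0.57), and ECT2, which activates RhoA there, was not called in any line. The value of ANLN was below 0 in all 8 lines, and no difference of its response from CLIP was called.

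Among replication members, those that load and activate the helicase moved in both directions. Of 12, 3 rose on average (CDC45, MCM2 and MCM5) and 7 fell. CDC45, a subunit of the active helicase, ran from 53.5 to 68.5 CPM with siNT (median 58.7) and from 66.3 to 86.7 CPM with siUPF1 (median 77.0). The ranges overlapped by a few libraries across lines but not within any line. It rose by 0.37 on average (SE 0.02, adjusted p = 2.32e-16), with line values from 0.28 in R843C to 0.46 in E797R. Subunits of the hexamer itself differed. MCM5 rose on average by 0.25 (SE 0.04, adjusted p = 6.86e-08) and MCM2 by 0.32 (SE 0.05, adjusted p = 3.68e-07), MCM4, MCM6 and MCM7 fell by 0.18, 0.16 and 0.14, and MCM3 did not pass the test (0.05, adjusted p = 0.124).

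The rise of MCM2 depended on single libraries. In CLIP its siNT values were 233, 226 and 242 CPM and its siUPF1 values 271, 503 and 305 CPM, the 503 in replicate 2. The CLIP change was 0.62, and 0.29 without that library (adjusted p = 0.0532). The WT call (0.47) was lost without WT siUPF1 replicate 3, at 359 CPM, and the E797R call (0.38) without any 1 of 5 libraries. MCM5 was called in 5 lines, each call lost without some library, and its CLIP value was 0.05 without replicate 2. The loading factors CDC6 and CDT1 both fell on average, by 0.17 and 0.20. CDT1 was called in GA-KH alone (-0.38), a call lost without any 1 of 4 libraries, and its value was below 0 in 7 lines. In CLIP its siUPF1 values were 174, 320.2 and 187 CPM against 195, 198 and 201 CPM with siNT, so the positive CLIP value (0.20, not called) rests on replicate 2. MCM10, which helps to activate the helicase, fell by 0.16, GINS1 fell by 0.08 (in CLIP by 0.25, and -0.08 with an adjusted p of 0.309 without replicate 2) and GINS2, both subunits of the active helicase, did not pass the test.

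At the fork, POLA1, the catalytic subunit of the polymerase that primes synthesis, rose by 0.22 (SE 0.03, adjusted p = 7.37e-10). It ran from 112 to 152 CPM with siNT (median 129) and from 122 to 187 CPM with siUPF1 (median 157), with calls in CLIP, K498A, DE636AA, R843C and A546H. The R843C call held in 3 of 6 fits with 1 library left out, and the A546H call in 5 of 6. RFC4, of the complex that loads the sliding clamp, fell by 0.19. PCNA, the clamp itself, did not pass the test (-0.06, adjusted p = 0.16). Its call in CLIP (-0.33) was lost without replicate 2 (-0.13, adjusted p = 0.192), which held 129.6 CPM against 208 and 220.4 CPM in the other two siUPF1 libraries. FEN1, the flap nuclease, was called in no line.

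All 3 members that supply nucleotides fell on average. TYMS, thymidylate synthase, fell by 0.62 (SE 0.03, adjusted p = 9.99e-22) and RRM2 by 0.52 (SE 0.03, adjusted p = 3.84e-19). RRM2 is the small and RRM1 the large subunit of ribonucleotide reductase, and RRM1 fell by 0.33 (SE 0.03, adjusted p = 2.39e-11). RRM2 ran from 241 to 338 CPM with siNT (median 283) and from 165 to 249 CPM with siUPF1 (median 194). The change was similar in size in the 8 lines, from -0.43 in CLIP to -0.60 in DE636AA, and all 8 calls held with any library of the line left out. TYMS overlaps ENOSF1 and TYMSOS on the opposite strand, and both TYMS and RRM2 have pseudogene copies in the GENCODE 29 annotation. The strand setting of the counting is not given, so part of their counts may belong to those loci, as for 25 of the 50 members with an overlapping exon or a named pseudogene.

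Among the 4 regulators of the step into S phase, CCND1, cyclin D1, rose in every line. It ran from 73.7 to 104 CPM with siNT (median 85.3) and from 101 to 149 CPM with siUPF1 (median 124), and the mean response was 0.49 (SE 0.02, adjusted p = 8.11e-21). LTO1 overlaps it on the opposite strand. E2F1, the founding E2F factor, rose on average by 0.15 and in CLIP (0.48) and DE636AA (0.24, called in 2 of 6 fits with 1 library left out). With the GC correction the CLIP value was 0.15 (adjusted p = 0.0688), and its transcript has 62.5% GC. CCNE2, cyclin E2, fell on average by 0.24 and in CLIP by 0.61, where replicate 2 held 7.1 CPM against 17.9 and 14.7 CPM. Without that library the CLIP value was -0.33 (adjusted p = 0.248). CCNE1, cyclin E1, ran from 45.5 to 58.2 CPM with siNT and from 42.6 to 71.0 CPM with siUPF1 and was called in no line.

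The contrast of mitotic and replication members was uneven over the lines. In R843C, A546H and GA-KH the share called lower was alike in both sets. Of 27 mitotic and 23 replication members 10 and 8 fell in R843C, 10 and 8 in A546H, and 6 and 5 in GA-KH. In CLIP 18 mitotic members fell and 1 rose, against 10 and 6 of the replication members, where 22.3% of all genes were called lower and 25.1% higher. The medians were -0.32 and -0.10. Without CLIP siUPF1 replicate 2, 14 mitotic members fell and 0 rose (median -0.21), and 9 replication members fell and 4 rose (median -0.14). Of the 35 members called in CLIP 24 were called in the same direction without that library and 26 with the GC correction. With that correction the CLIP medians were -0.19 for mitotic members (the value of CDK1) and -0.14 for replication members (that of CDC6). These lie closer together than the -0.32 and -0.10 found with no correction. In the fit to the 6 CLIP libraries alone, 6 mitotic and 4 replication members were called, where 22.0% of all genes were. These members thus did not stand out from all genes in that fit.

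K498A, DE636AA, R843C and A546H had 10 to 12 mitotic members lowered. In K498A 11 mitotic members fell and 1 rose, with 5 and 4 for replication, where 16.5% of all genes fell and 16.2% rose. Same-numbered siNT and siUPF1 libraries of K498A deviated together (correlations 0.18, 0.16 and 0.28). With a replicate block within each line 18 mitotic members fell and 1 rose there, where 38.7% of all genes were called in either direction. The members added were MKI67, CCNB1, CCNB2, CCNA2, NUF2, CENPF and ANLN, at -0.18 to -0.35, and among replication members MCM7 (-0.17), MCM10 (-0.15), CDT1 (-0.29) and E2F1 (0.20). The statements above on the lines in which these members were called hold for the fit with no block. With the GC correction 23 mitotic members were called in K498A, where 51.7% of all genes were. In DE636AA the counts were 12 and 2, and 5 and 5, with 17.6% of all genes lower and 16.7% higher. In R843C 10 mitotic members fell and 0 rose, and 8 replication members fell and 3 rose (14.8% and 17.7% of all genes). Leaving out R843C siNT replicate 2 or siUPF1 replicate 3 left 7 called replication members instead of 11. In A546H 10 fell and 2 rose, and 8 and 3 of the replication members (15% and 17.2%).

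In WT, GA-KH and E797R fewer mitotic members were called, and their share was closer to the background. In WT 6 mitotic members fell and 2 rose, and 3 and 4 of the replication members (13.3% and 14% of all genes). In GA-KH the counts were 6 and 2, and 5 and 2 (13.8% and 14.5%). In E797R they were 6 and 2, and 3 and 4 (13.5% and 16%). Without E797R siNT replicate 2 or 3, 4 replication members were called there instead of 7. Median mitotic changes were -0.09, -0.09 and -0.10 in these 3 lines, and median replication changes 0.01, -0.06 and 0.00. Without WT siUPF1 replicate 3, 5 mitotic members fell and 2 rose in WT, and without E797R siUPF1 replicate 3 the same numbers were found in E797R. Whether the count in one line differs from that in another was not tested as such.

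Some splits depend on the scaling. With upper-quartile in place of TMM factors 18 mitotic members fell in R843C, 15 in K498A and 14 in DE636AA, 10 fell and 1 rose in WT, and the replication members split into 5 lower and 3 higher in WT, 7 and 3 in K498A, 9 and 2 in GA-KH, and 5 and 2 in E797R. Over all genes the called ones that rose made 38.9% to 43.3% under that scaling in CLIP, WT, R843C, A546H, GA-KH and E797R, against 51.2% to 54.5% with TMM.

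The mean log2 CPM of the mitotic members gave 1 level per library. In CLIP it was 7.29 ± 0.02 with siNT (SD, n = 3) and 6.91 ± 0.27 with siUPF1, a difference of -0.38, or -0.23 without replicate 2. Ordered by size, the differences were -0.31 for K498A, -0.28 for DE636AA, -0.21 for R843C, -0.14 for A546H, -0.13 for WT, and -0.10 for both GA-KH and E797R. In WT the siUPF1 libraries were at 7.164, 7.198 and 6.960, the last in replicate 3, against a siNT mean of 7.234. In E797R they were at 7.171, 7.176 and 6.987, the last in replicate 3, against a siNT mean of 7.212. The differences of WT and E797R thus rested largely on siUPF1 replicate 3. The groups did not overlap in CLIP, WT, K498A, DE636AA and R843C. They overlapped in A546H, GA-KH and E797R. For the replication members the differences were smaller, from -0.10 in A546H to 0.01 in E797R, and -0.06 in CLIP. This gap depended in part on the regulators of the step into S phase. Without them the replication differences were -0.13 in A546H and -0.09 in GA-KH, close to the mitotic -0.14 and -0.10. In the remaining lines they ran from -0.13 in K498A to -0.02 in E797R and stayed further from the mitotic differences. Across the 48 libraries the 2 levels were related with a Pearson r of 0.61, of 0.40 within the siNT and 0.53 within the siUPF1 libraries, as a description of points that share their library, depth and scaling. The plot of levels per library shows both.

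**Figure D3:**
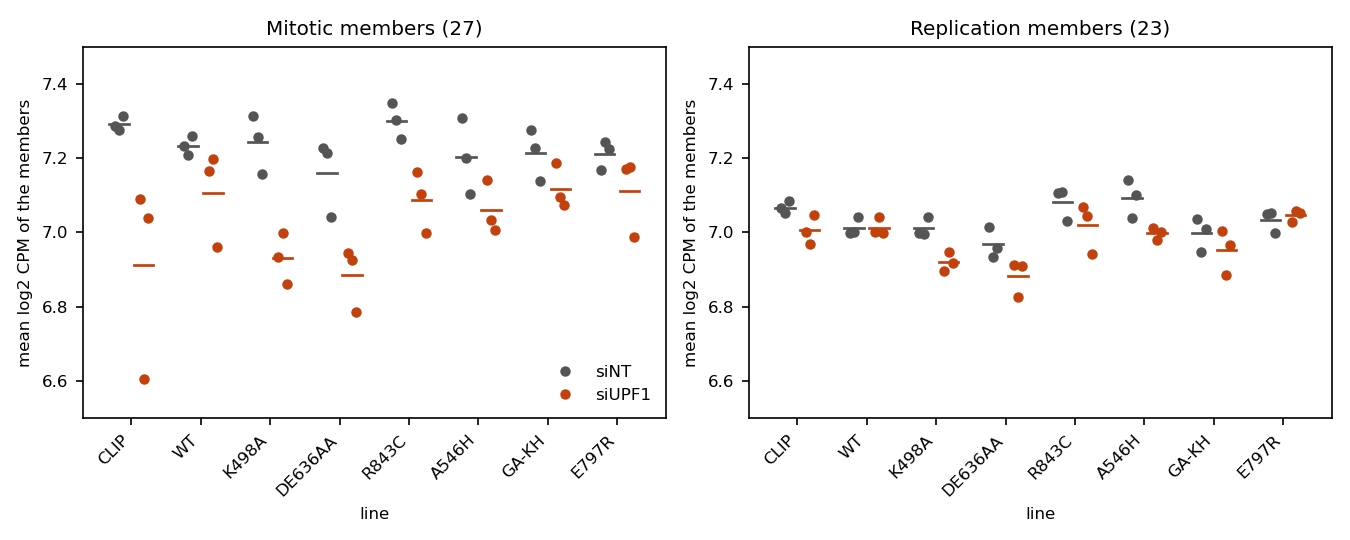
Mean log2 CPM of the mitotic members (left) and the replication members (right) in each of 48 libraries (points), by line (x axis), with siNT in grey, siUPF1 in orange and bars at the mean of 3 libraries. The axes start at 6.5 and are the same in both panels. Mitotic levels are lower with siUPF1 in every line by group mean (-0.10 to -0.38), replication levels by less (0.01 to -0.10).

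The largest called differences between lines were those of MAD2L1 (MAD2), the checkpoint protein that inhibits CDC20. In K498A its siNT values were 122, 98.5 and 105 CPM and its siUPF1 values 45.1, 47.1 and 45.2 CPM. In DE636AA they were 104, 102 and 87.9 CPM with siNT and 40.6, 44.4 and 36.9 CPM with siUPF1. In WT they were 99.3, 94.97 and 109.8 CPM with siNT and 102, 98.0 and 95.03 CPM with siUPF1. So the siUPF1 libraries of K498A and DE636AA lay far below their siNT libraries, and those of WT within their range. The changes were -1.25 (SE 0.15, adjusted p = 3.08e-08) in K498A, -1.27 (SE 0.15, adjusted p = 2.17e-08) in DE636AA and -0.04 in WT (95% interval -0.33 to 0.25). The response differed from that of WT by -1.20 (SE 0.21, adjusted p = 0.000417) in K498A and by -1.23 (SE 0.21, adjusted p = 0.000249) in DE636AA. In the 5 lines other than K498A, DE636AA and WT no change was called. CLIP siUPF1 replicate 2, at 48.6 CPM, was as low as the K498A libraries, while replicates 1 and 3 held 104 and 113 CPM. MAD2L1 is overlapped by AC108866.1 on the opposite strand.

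TYMS fell in every line and further in the same pair. In WT it went from 216, 209 and 233 CPM to 172, 171 and 152 CPM. In K498A it went from 208, 201 and 208 CPM to 113, 113 and 109 CPM, and in DE636AA from 203, 178 and 193 CPM to 96.0, 87.2 and 96.8 CPM. The groups did not overlap in any of the 3 lines, and the siUPF1 values were lowest in DE636AA. The differences from WT were -0.47 (SE 0.11, adjusted p = 0.0104) and -0.63 (SE 0.11, adjusted p = 0.000309). RRM1 went from 207, 206 and 215 CPM to 203, 205 and 163 CPM in WT, and to 142, 142 and 129 CPM in K498A from 221, 207 and 206 CPM. In DE636AA it went from 209, 189 and 193 CPM to 130.3, 130.1 and 122 CPM. The RRM1 responses differed from WT by -0.48 (adjusted p = 0.0353) and -0.49 (adjusted p = 0.0247), calls that were lost in some fits with 1 library left out. RRM2 showed no such called difference.

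In all, 6 members differed from WT in K498A (MAD2L1, TPX2, MCM4, RRM1, TYMS and CCND1), where 3.26% of all genes did. In DE636AA 7 differed (MAD2L1, TPX2, BIRC5, GINS2, RRM1, TYMS and CCND1), where 4.5% did. All 13 of these differences were negative, and all 13 were called with the GC correction. MAD2L1 and TYMS in both lines, and GINS2 and CCND1 in DE636AA, were called with any 1 library left out. Leaving out 1 of 8 libraries (WT siNT replicates 1 and 2, WT siUPF1 replicates 1 and 2, K498A siNT replicates 1 and 3, K498A siUPF1 replicates 2 and 3) reduced the count in K498A to 2 or 3. Leaving out WT siNT replicate 1 reduced that in DE636AA to 4. No member differed from WT by edgeR in the remaining lines, with 0 for R843C (1.94% of all genes), 0 for A546H (0.298%), 0 for GA-KH (0%) and 0 for E797R (0%), with 3, 2, 1 and 0 at an unadjusted p under 0.05, and 0 in each by DESeq2.

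Set against CLIP, whose 6 libraries enter all 7 of these differences, the members with the largest called differences were MAD2L1 and BIRC5 downwards and KIF20A and TOP2A upwards. Larger upward differences that did not pass the test included that of CENPE in E797R (0.67, SE 0.26, adjusted p = 0.0751) and that of TTK in GA-KH (0.62, SE 0.26, adjusted p = 0.0975). BIRC5 was at 196, 188 and 202 CPM with siNT and at 188, 166 and 219 CPM with siUPF1 in CLIP, so the groups overlapped (-0.03, 95% interval -0.18 to 0.11). With the GC correction BIRC5 was called lower in CLIP too (-0.16, edgeR adjusted p = 0.0422). In DE636AA it went from 185, 169 and 177 CPM to 98.8, 102 and 112 CPM, with no overlap. It fell in the 7 lines with CLIP-UPF1, from -0.20 in R843C, a call lost without any 1 of 5 libraries, to -0.76 in DE636AA. Its response differed from CLIP in 6 of them, by up to -0.73 in DE636AA (SE 0.11, adjusted p = 5.28e-06), and not in R843C (-0.16, adjusted p = 0.563). In every one of these 6 lines the difference was also called without CLIP siUPF1 replicate 2 and with the GC correction. In WT it was not called with every library left out in turn (largest adjusted p = 0.0687). In edgeR fits to the compared libraries alone the BIRC5 difference was called in K498A, DE636AA and GA-KH. It was not called there in WT, A546H or E797R (adjusted p = 0.273, 0.213 and 0.096).

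KIF20A in CLIP was at 84.8, 86.2 and 89.2 CPM with siNT and 85.4, 82.7 and 88.4 CPM with siUPF1, a change of -0.02 (95% interval -0.15 to 0.11). In E797R it went from 85.4, 85.7 and 82.0 CPM to 120.1, 117 and 117 CPM. These groups were far apart. It rose in WT, K498A, DE636AA, A546H, GA-KH and E797R. The calls in K498A and A546H each held in 3 of 6 fits with 1 library left out. The response differed from CLIP in WT (0.39), DE636AA (0.31), GA-KH (0.48) and E797R (0.51). All 4 differences held without CLIP siUPF1 replicate 2, with the GC correction and in every fit with 1 library left out. In edgeR fits to the compared libraries alone only that of E797R was called (adjusted p = 0.0219). The adjusted p was 0.154 in WT, 0.134 in DE636AA and 0.0537 in GA-KH. BRD8 and CDC23 overlap KIF20A on the opposite strand. TOP2A differed from CLIP in GA-KH by 0.48 (SE 0.16, adjusted p = 0.0342), which was 0.35 (adjusted p = 0.151) without CLIP siUPF1 replicate 2 and 0.13 (adjusted p = 0.341) with the GC correction.

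The rise of CCND1 was graded across lines. In GA-KH it went from 80.5, 80.7 and 77.9 CPM to 136, 129.6 and 138 CPM, a change of 0.76 (SE 0.07, adjusted p = 2.74e-11). In DE636AA it went from 102, 101 and 104 CPM to 109, 112 and 127 CPM, a change of 0.19 (SE 0.07, adjusted p = 0.0259) that was lost without any 1 of 3 libraries. In CLIP it went from 84.5, 79.8 and 89.9 CPM to 109, 104 and 101 CPM (0.31). The groups did not overlap in any of the 3. The response exceeded that of CLIP in WT (0.33), GA-KH (0.45) and E797R (0.33), and fell short of that of WT in K498A (-0.33) and DE636AA (-0.45). Of these 5 differences, those of GA-KH from CLIP and of DE636AA from WT were called with any 1 library left out. The panels of single genes show these members in every library.

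**Figure D4:**
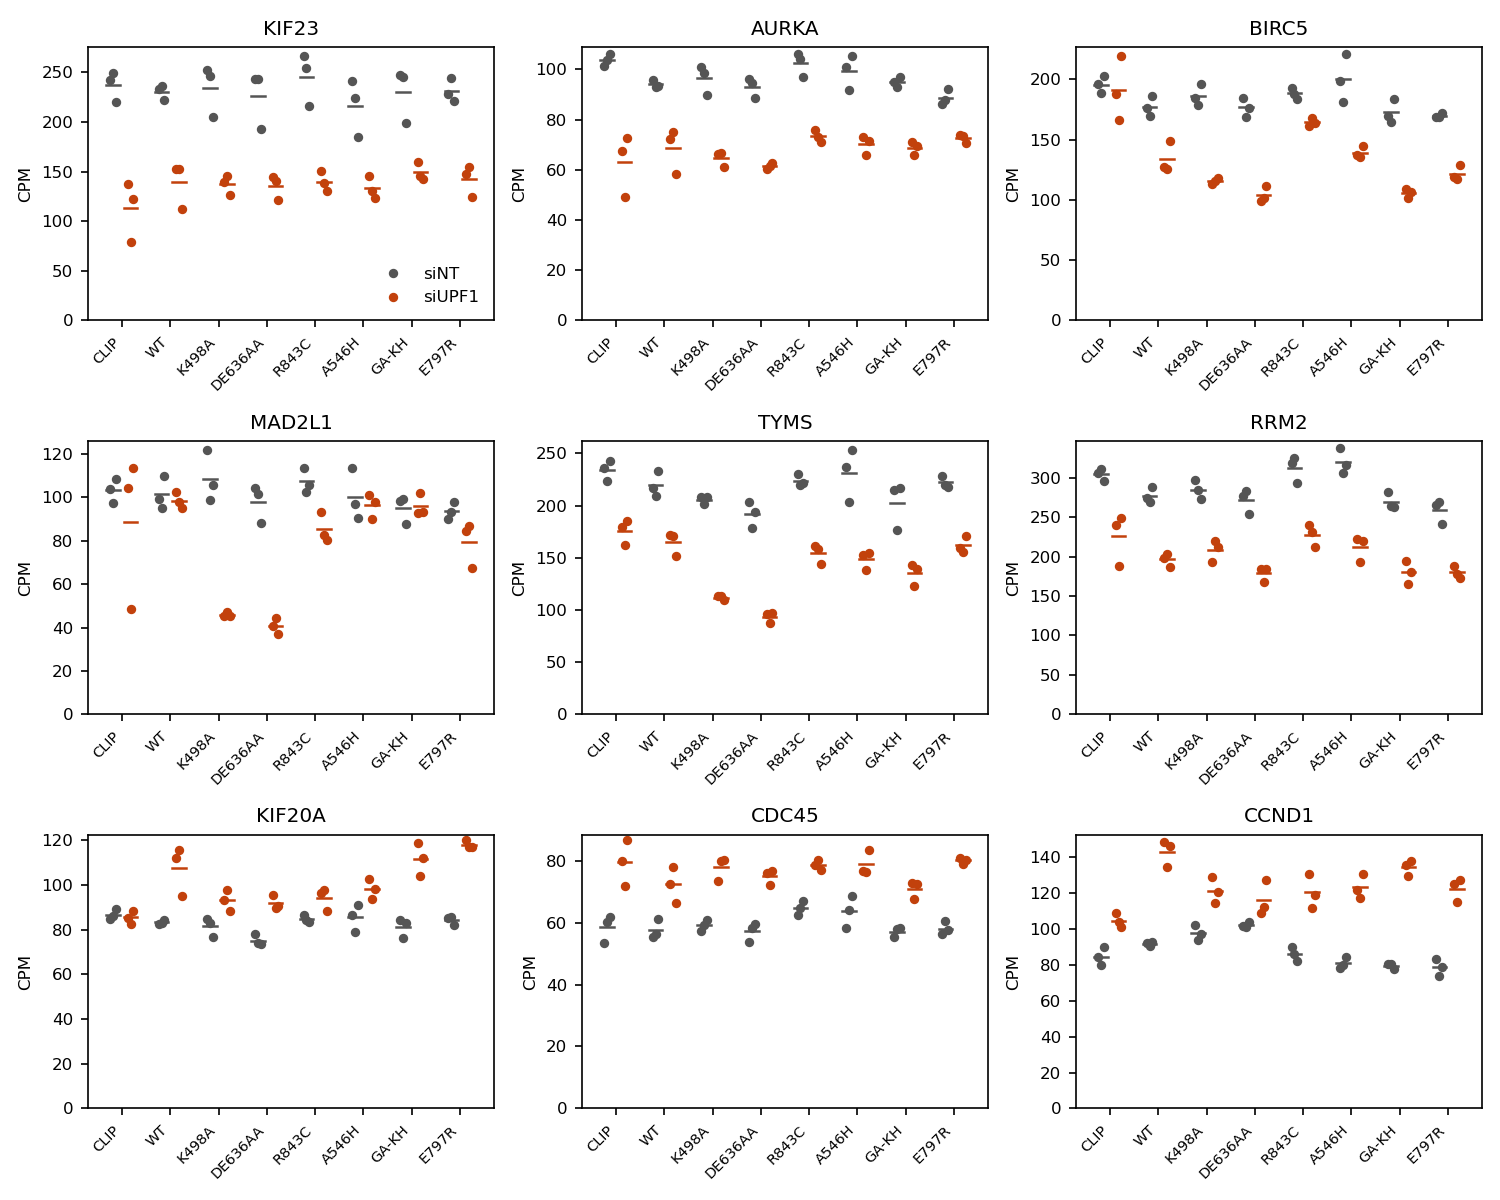
CPM (y axis, from 0) of 9 members in each of 48 libraries (points), by line (x axis), with siNT in grey, siUPF1 in orange and bars at the mean of 3 libraries. KIF23, AURKA, TYMS and RRM2 are lower with siUPF1 in every line. MAD2L1 is lowered to 36.9 to 47.1 CPM in K498A and DE636AA and in 1 CLIP library (48.6 CPM), BIRC5 and KIF20A overlap between siNT and siUPF1 in CLIP, and CDC45 and CCND1 are higher in every line.

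Counted over all members, the response differed from that of CLIP for 7 members of WT (11.9% of all genes), 7 of K498A (13.6%), 10 of DE636AA (17.9%), 1 of A546H (5.63%), 8 of GA-KH (14.3%) and 7 of E797R (13.3%). These shares are near the background or, for BIRC5 alone in A546H, below it. In R843C 0 members differed (0.753% of all genes) by edgeR, with 1 at an unadjusted p under 0.05 and 0 by DESeq2. Of the 40 differences 24 were called without CLIP siUPF1 replicate 2, 33 with the GC correction and 19 whichever library was left out. Leaving out 1 library moved the counts widely. Without CLIP siUPF1 replicate 1 or 3, so with replicate 2 weighing more, they were 12 and 14 in WT, 19 and 15 in GA-KH, 15 and 12 in E797R, and 12 and 4 in A546H, and 11 in K498A without replicate 3. Without CLIP siUPF1 replicate 2 they were 4 in WT and 4 in GA-KH. Without CLIP siNT replicate 2 there were 4 in K498A and 2 in A546H, and without CLIP siNT replicate 3 there were 3 in WT and 5 in GA-KH. Libraries of the other lines moved their own counts, to 2 and 3 without WT siUPF1 replicates 1 and 2, to 4 without K498A siNT replicate 3 or siUPF1 replicate 1, and to 5 without GA-KH siNT replicate 2 or 3 or siUPF1 replicate 1. The count became 4 without E797R siUPF1 replicate 1 and 2 without A546H siNT replicate 1 or siUPF1 replicate 2.

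The GC pattern of CLIP siUPF1 replicate 2 was visible in the members themselves. Across the 50 members the change of this library from the siNT mean followed GC content with a Spearman rho of 0.81, against 0.14 and 0.50 for replicates 1 and 3, a description in which points share the library. The median change of mitotic members was -0.83 in this library and -0.21 and -0.20 in the others, and that of replication members 0.07, -0.17 and -0.10. Its share of mitochondrially encoded counts was 0.631%, against 2.32% and 2.13%, and its UPF1 level of 36.8 CPM was above those of 18.2 and 17.7 CPM. The part of RNA quality in these values was not tested. The plot of change against GC content shows the 3 libraries.

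**Figure D5:**
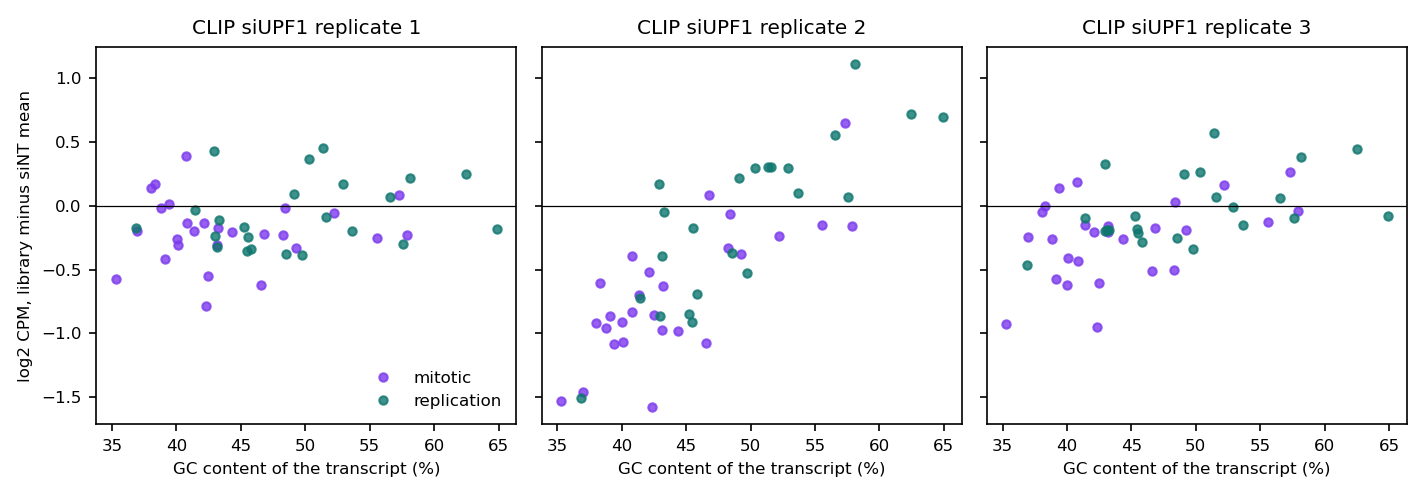
Log2 CPM of each member in a CLIP siUPF1 library minus the mean of the 3 CLIP siNT libraries (y axis) against the GC content of its longest protein-coding transcript (x axis, percent), for replicates 1, 2 and 3, with mitotic members in purple and replication members in green. Replicate 2 has a steep slope (rho 0.81), while replicates 1 and 3 have rho 0.14 and 0.50.

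With siNT no member was called between lines. Of the 50 members 0 were called between siNT libraries by edgeR in WT against CLIP (0.0314% of all genes), or of WT against K498A (0.0261%), DE636AA (0.0261%), R843C (0.0889%), A546H (0.889%), GA-KH (0.0889%) and E797R (0.047%). At an unadjusted p under 0.05 there were 1, 0, 7, 3, 9, 1 and 3 members in the same order, and 0 in each by DESeq2. All member differences lay between -0.27 and 0.26 on the log2 scale, both in A546H.

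Other genes of the cell cycle, listed by function, were counted in the mean response, in which 34.1% of all genes fell and 35.1% rose. Of 60 other mitotic genes 41 fell and 6 rose, with a median of -0.22. The largest falls were of HMMR, a spindle and hyaluronan-binding protein (-1.20, SE 0.04), NEK2, a centrosome kinase (-0.996, SE 0.03) and CENPI, a kinetochore protein (-0.83, SE 0.05), each called in all 8 lines. The largest rises were of MYBL2, a factor that joins MuvB (0.46), CENPM (0.23) and FZR1, an activator of the anaphase-promoting complex (0.17). MYBL2 was called in 7 lines, but CENPM and FZR1 in 2 each, with line values of -0.07 to 1.02 and 0.00 to 0.60. Of 47 other replication genes 25 fell and 14 rose, with a median of -0.12. ORC5, of the origin recognition complex (-0.80, SE 0.05), CHAF1B, of chromatin assembly (-0.61, SE 0.02) and PRIM1, the primase (-0.55, SE 0.06) fell most. ORC5 and CHAF1B were called in all 8 lines and PRIM1 in 5. POLD1, the catalytic subunit of polymerase delta, rose by 1.12 (SE 0.06), its partner POLD2 by 0.79 (SE 0.03) and the maintenance methyltransferase DNMT1 by 0.49 (SE 0.03), all in all 8 lines. Of 30 other genes of G1/S control 12 rose and 10 fell, shares near the background, with a median of 0.04. RBL1 (0.54), CDC25A (0.52) and LIN52 (0.31) rose most, and CKS1B (-0.38), LIN9 (-0.36) and SKP2 (-0.22) fell most. RBL1 and CDC25A were called in all 8 lines, LIN52, CKS1B and SKP2 in 3 each and LIN9 in 2. CKS1B ran from -0.96 to 0.31 over the lines.

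An annotated NMD transcript was about as common among the members as elsewhere. GENCODE 29 lists one for 11 of 27 mitotic members, 9 of 23 replication members and 41.4% of all tested genes with a protein-coding transcript. It lists one for 5 of the 9 members that rose on average and 13 of the 34 that fell. CDC45, MCM2, MCM5, TTK and KIF20A are the 5 that rose and have one, and CCND1 and POLA1 have none.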

How the data were processed

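The authors deposited 1 table of expected counts per gene, 57820 genes by 48 libraries, not normalised. The submitters' processing notes name cutadapt, STAR, RSEM and DESeq2, and hg19 as the build. Tool versions, the gene annotation and the strand setting are not given in the sources used here, and the table holds no coordinates.

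The rounded expected counts were fitted with edgeR 4.0.16 in R 4.3.3 (TMM factors, filterByExpr with the 16 groups, quasi-likelihood test, 1 term per group over all 48 libraries). P-values were adjusted by Benjamini-Hochberg over the 19129 genes of a comparison and called under 0.05. Comparisons were the response of each line (siUPF1 against siNT), its mean over 8 lines, differences of responses from CLIP and from WT, and siNT libraries between lines. Log2 CPM used a prior count of 2. The script was tested on simulated counts. No 2 libraries agreed within sampling noise. The counts per library give a precision that covers counting error only.

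Named genes were, in each of the mitotic and replication sets, the 6 with the largest called mean response, members called higher on average and in at least 4 lines, those with the largest called differences from CLIP, a fixed set of 7 (MKI67, PCNA, CCND1, CCNE1, CCNE2, E2F1, CDT1), and the 3 highest and 3 lowest of each other list. Members named outside this rule were chosen after their values were seen. The members and lists were chosen with earlier results of these data known. The cell type markers were NEFM, NEFL, INA, PAX2 and LHX1 for HEK293 cells and EPCAM, COL1A1, COL3A1, PTPRC, CD3E, CDH5, ALB, GFAP, MYH6 and KRT5 for others; 1 further marker of the list is not reported here. COL1A1, COL3A1, NEFM, PAX2 and LHX1 were at or below 13.3 CPM and ALB and GFAP at or below 0.903 CPM. PECAM1 was not analysed here. RBL1 and CKS1B matched 2 entries and were resolved by gene identifier.

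Promoters came from RefSeq (GRCh38.p14), and transcript GC content, NMD transcripts and overlaps from GENCODE 29, matched by gene identifier. Alternatives were RLE and upper-quartile factors, DESeq2 1.42.0, no filter, fits to single comparisons, replicate blocks, prior count 0.5, each library left out, and, added after seeing the data, an offset per library for GC content.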

Additional observations from a re-analysis of the deposited data

Results flagged for a closer look

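The results below are differences between lines in the response to siUPF1, on the log2 scale, that passed the edgeR quasi-likelihood test of the difference itself at a Benjamini-Hochberg adjusted p under 0.05. All differences from CLIP share the 6 CLIP libraries, and all differences from WT the 6 WT libraries.

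Against CLIP, BIRC5 responded more negatively in WT (-0.37), K498A (-0.65), DE636AA (-0.73), A546H (-0.49), GA-KH (-0.67) and E797R (-0.45). MAD2L1 differed in K498A (-1.03) and DE636AA (-1.05), and TYMS in the same lines (-0.46 and -0.62). TPX2 differed in K498A (-0.27) and DE636AA (-0.28), GINS2 in K498A (-0.36) and DE636AA (-0.51), and RFC4 in the opposite direction (0.40 and 0.44). PLK1 differed by -0.50 in K498A and -0.45 in DE636AA.

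KIF20A responded more positively than in CLIP in WT (0.39), DE636AA (0.31), GA-KH (0.48) and E797R (0.51), and BUB1 less negatively in WT (0.35), DE636AA (0.32), GA-KH (0.40) and E797R (0.42). CCND1 differed in WT (0.33), GA-KH (0.45) and E797R (0.33), MCM4 in WT (0.28), GA-KH (0.27) and E797R (0.33), and PTTG1 in WT (0.28) and DE636AA (0.36). E2F1 differed in WT (-0.47), GA-KH (-0.54) and E797R (-0.42), CDT1 in GA-KH (-0.58), TOP2A in GA-KH (0.48) and AURKA in E797R (0.42). Of these, the differences of PLK1, CDT1, TOP2A, BUB1, TPX2 and AURKA, those of PTTG1 in WT, E2F1 in WT and E797R, RFC4 in K498A and MCM4 in GA-KH, 16 in all, were not called without CLIP siUPF1 replicate 2.

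Against WT, MAD2L1 differed in K498A (-1.20) and DE636AA (-1.23), TYMS in K498A (-0.47) and DE636AA (-0.63), RRM1 in K498A (-0.48) and DE636AA (-0.49), TPX2 in K498A (-0.33) and DE636AA (-0.34), and CCND1 in K498A (-0.33) and DE636AA (-0.45). MCM4 differed in K498A (-0.28), and BIRC5 (-0.36) and GINS2 (-0.49) in DE636AA.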

How the results depend on the processing

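None of the 212 member values called in a response or in the mean changed sign under an alternative run. Of the 238 not called, 73 changed sign under at least 1, among them KIF11 (0.22) and CDT1 (-0.18) in CLIP, called in the new direction with the GC offset. In CLIP without siUPF1 replicate 2 the signs of MAD2L1 (0.07), KIF11 (0.08), BIRC5 (0.05), ECT2 (0.04), MCM3 (-0.02) and CDT1 (-0.14) changed, with no call. Called members in single responses moved by over 1.5 times as follows, and the cause was not tested unless named. With the GC offset there were 14 mitotic and 12 replication members in WT, 23 mitotic in K498A, 21 mitotic in R843C, 20 mitotic in A546H, 14 mitotic and 12 replication in GA-KH and 15 mitotic in E797R. With upper-quartile factors there were 18 mitotic in R843C (32.9% of all genes) and 11 replication in GA-KH (28.4%). With no filter there were 4 replication in GA-KH (12.5%). Fits to the compared libraries alone, with fewer samples for the spread, gave 6 mitotic and 4 replication in CLIP and 21 mitotic in R843C. Those fits called 22.0% of all genes in CLIP and 50.6% in R843C. With a replicate block within each line there were 19 mitotic in K498A (38.7% of all genes) and 16 in R843C (38.3%).

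Differences from CLIP gave, with upper-quartile factors, 12 in WT, 3 in A546H and 12 in E797R. They gave 2 (RLE) and 4 (DESeq2) in A546H, and with no filter 4 in A546H and 13 in GA-KH. Fits to the compared libraries alone gave 0 for WT and A546H, 2 for K498A and DE636AA (BIRC5 and TYMS), and 1 for GA-KH (BIRC5) and E797R (KIF20A). MAD2L1 was not called by edgeR in these fits (adjusted p = 0.12 in K498A and 0.101 in DE636AA). The replicate block over all libraries gave 5 for A546H, 16 for GA-KH and 11 for E797R, and the replicate block within each line 13 for WT, 6 for A546H, 20 for GA-KH and 16 for E797R. With the GC offset there were 11 in WT, 13 in K498A, 3 in A546H and 11 in E797R. The replication level difference was -0.0272 in WT, -0.128 in K498A and -0.0247 in E797R without the 4 G1/S regulators. It was then -0.0852 in CLIP, -0.114 in DE636AA, -0.0964 in R843C, -0.130 in A546H and -0.0910 in GA-KH. Differences from WT in K498A gave 3 (upper-quartile), 1 (no filter), 10 (either replicate block) and 11 (GC offset), in DE636AA 2 (no filter), 3 (compared libraries alone) and 12 (GC offset), and in R843C 2 (GC offset). Between siNT libraries there was 1 in R843C (compared libraries alone) and 3 in A546H (GC offset). In fits with 1 library left out the calls ran from 7 to 11 replication members in R843C, 4 to 7 in E797R, and against CLIP from 2 to 14 in WT, 4 to 11 in K498A, 1 to 12 for A546H, 4 to 19 for GA-KH and 4 to 15 for E797R. Against WT they ran from 2 to 5 in K498A and 4 to 7 in DE636AA. Where 2 libraries remained in a group, they were assumed to vary like the others. Replicate numbers are not stated to pair libraries. Deviations of same-numbered libraries correlated at -0.01 to 0.28 over 24 pairs, 15 of them above 0.1, with 20 of 24 closest to their own number. All 3 pairs were above 0.1 in K498A and GA-KH, and in GA-KH the replicate block within each line added CDC20 (-0.17), MCM7 (-0.18) and MCM5 (0.24). Depth of 21.3 M or more leaves the spread between 3 libraries, rather than counting, as the limit for these genes.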
